A study of Mus musculus with 2 samples.

Results

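The genes described are 10 that encode granule and antiprotease proteins of neutrophils, out of 33696 genes listed for each library: S100a8, S100a9, Slpi, Wfdc17, Wfdc21, Lcn2, Camp, Ltf, Ngp and Retnlg. They were found by symbol, and each symbol matched a single gene. The genes were selected on measured values of these same libraries, their UMI levels across cell clusters and their differences between the libraries, so the levels and ratios below are descriptions and carry no test. The study grew CT26, a mouse colon carcinoma line, as subcutaneous tumors in male BALB/c mice. The UT tumors were left untreated, and the others received BUP-Gel, a hydrogel that releases the local anesthetic bupivacaine (BUP) at the tumor. Each group is 1 library of the 10x 5' assay, made from the pooled tumors of 3 mice, with sorted live CD45+ and CD45- cells mixed again before loading. No replicate exists, so a difference between BUP-Gel and UT cannot be told apart from a difference between the animals or the lanes. Neither library received the gel without bupivacaine, so the drug, the gel and its injection cannot be told apart either. The harvest time was not given in the sources used here, and sorting fixed the balance of immune to other cells.

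Neutrophils are made in the bone marrow in stages, and each stage packs its own proteins. The serine proteases of azurophil granules come first, the lactoferrin, cathelicidin and neutrophilic granule protein of specific granules next, and gelatinase granules last. S100A8 and S100A9 pair to form calprotectin, a calcium- and zinc-binding complex that fills the cytosol of neutrophils and monocytes and is released as an alarm signal, while SLPI and some other proteins with a WAP domain hold neutrophil proteases in check. Lipocalin 2 binds bacterial iron carriers and is made by epithelial and tumor cells as well as by neutrophils.

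The UT library held 83228442 UMIs (unique molecular identifiers, each standing for 1 captured RNA molecule) and the BUP-Gel library 89918925. After filtering, 7163 and 6776 cells were kept, and 68 barcodes among them occur in both libraries. The cells were clustered without the 10 genes. The neutrophil-like cluster had 622 UT and 427 BUP-Gel cells and all 10 neutrophil markers (Csf3r, Cxcr2, Ly6g and others), which summed to 22236 and 22492 CPM, or UMIs per 1000000 UMIs of the cluster, in UT and BUP-Gel. These cells were shallow, with medians of 1884 and 2129 UMIs, against 7605 and 8022 in the largest macrophage-like cluster. Macrophage markers summed to 1427 CPM in the UT and 944 CPM in the BUP-Gel neutrophil-like cells, and their part in the results was not tested. CPM is a share of a cluster's UMIs, so more of a gene per cell and less of all other genes cannot be told apart.

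Several of the genes lie side by side in the genome, and stretches upstream of 5 of them are printed because their transcripts sat in different cells. S100a8 and S100a9 are neighbours on chromosome 3, Wfdc17 and Wfdc21 on chromosome 11, and Camp, Ngp and Ltf all lie on chromosome 9. In GRCm39 coordinates of GENCODE, S100a8 spans chr3:90567118-90578128 and S100a9 chr3:90599931-90603071, on opposite strands. Wfdc17 spans chr11:83594817-83597095 and Wfdc21 chr11:83637766-83643472. Camp spans chr9:109676442-109678685, Ngp chr9:110248815-110252086 and Ltf chr9:110848339-110871835. Slpi spans chr2:164195990-164231015, Lcn2 chr2:32274645-32278264 and Retnlg chr16:48692547-48694862. The RefSeq table gave 250 bases before the RefSeq start for 9 of the 10 genes, and each of these windows matched the GRCm39 genome exactly once. Bases that an annotated exon of the gene covers were left off the printed stretch. The stretches of S100a8 and Slpi lie inside the GENCODE spans given above, which reach further upstream than the RefSeq start. Capitals mark GCAAT, or ATTGC where it lies on the other strand, the core letters of sites bound by C/EBP factors, which drive granule genes in the marrow.
S100a8, chr3:90576128-90576284, plus strand: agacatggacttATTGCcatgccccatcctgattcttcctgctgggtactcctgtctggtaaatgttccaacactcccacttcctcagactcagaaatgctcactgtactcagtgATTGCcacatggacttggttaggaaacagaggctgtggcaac
S100a9, chr3:90603072-90603278, minus strand: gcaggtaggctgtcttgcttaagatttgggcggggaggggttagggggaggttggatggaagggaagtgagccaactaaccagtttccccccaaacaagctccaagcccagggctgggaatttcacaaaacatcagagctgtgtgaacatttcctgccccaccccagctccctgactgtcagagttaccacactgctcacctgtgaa
Slpi, chr2:164198428-164198677, minus strand: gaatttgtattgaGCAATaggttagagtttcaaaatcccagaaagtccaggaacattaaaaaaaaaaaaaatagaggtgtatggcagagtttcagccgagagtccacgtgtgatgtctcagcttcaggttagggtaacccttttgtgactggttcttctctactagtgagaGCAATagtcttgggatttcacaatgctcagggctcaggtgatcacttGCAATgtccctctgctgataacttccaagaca
Ltf, chr9:110848110-110848338, plus strand: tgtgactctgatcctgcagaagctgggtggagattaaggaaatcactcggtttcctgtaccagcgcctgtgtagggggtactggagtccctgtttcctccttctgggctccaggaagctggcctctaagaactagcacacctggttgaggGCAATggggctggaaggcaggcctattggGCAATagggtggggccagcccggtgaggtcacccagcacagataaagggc
Ngp, chr9:110248626-110248814, plus strand: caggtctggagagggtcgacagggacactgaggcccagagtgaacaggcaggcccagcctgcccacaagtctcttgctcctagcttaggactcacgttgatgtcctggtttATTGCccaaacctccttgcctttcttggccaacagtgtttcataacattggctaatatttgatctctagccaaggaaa
GCAAT was found on either strand in 8 of the 9 full windows, all but that of Wfdc17, and in 23.1% of the 32851 windows of that length in the table. TATAAA, searched on the gene's strand, was in 1 of the 9 windows, that of S100a8, and in 7.59% of all windows. Both motifs were chosen after the sequences had been seen, and a match describes letters and not a bound site. The GCAAT match of S100a9 and the TATAAA match of S100a8 lie in the parts left off.

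The levels of the 10 genes fell into 4 patterns over the clusters. S100a8, S100a9, Wfdc21 and Retnlg were highest in the neutrophil-like cluster of both libraries, and the mixed cluster of neutrophil and macrophage transcripts came next. Slpi was highest in the Siglech-led and Mmp12 and Cxcl3 macrophage-like clusters. Wfdc17 and Lcn2 were highest in the neutrophil-like cluster too, and were also held by C1q macrophage-like cells (Wfdc17) and by non-immune and tumour-like cells (Lcn2). Camp and Ngp were held by very few cells, and Ltf by 110 UT and 77 BUP-Gel cells, CD8 T-like cells among them.

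**Figure D1:**
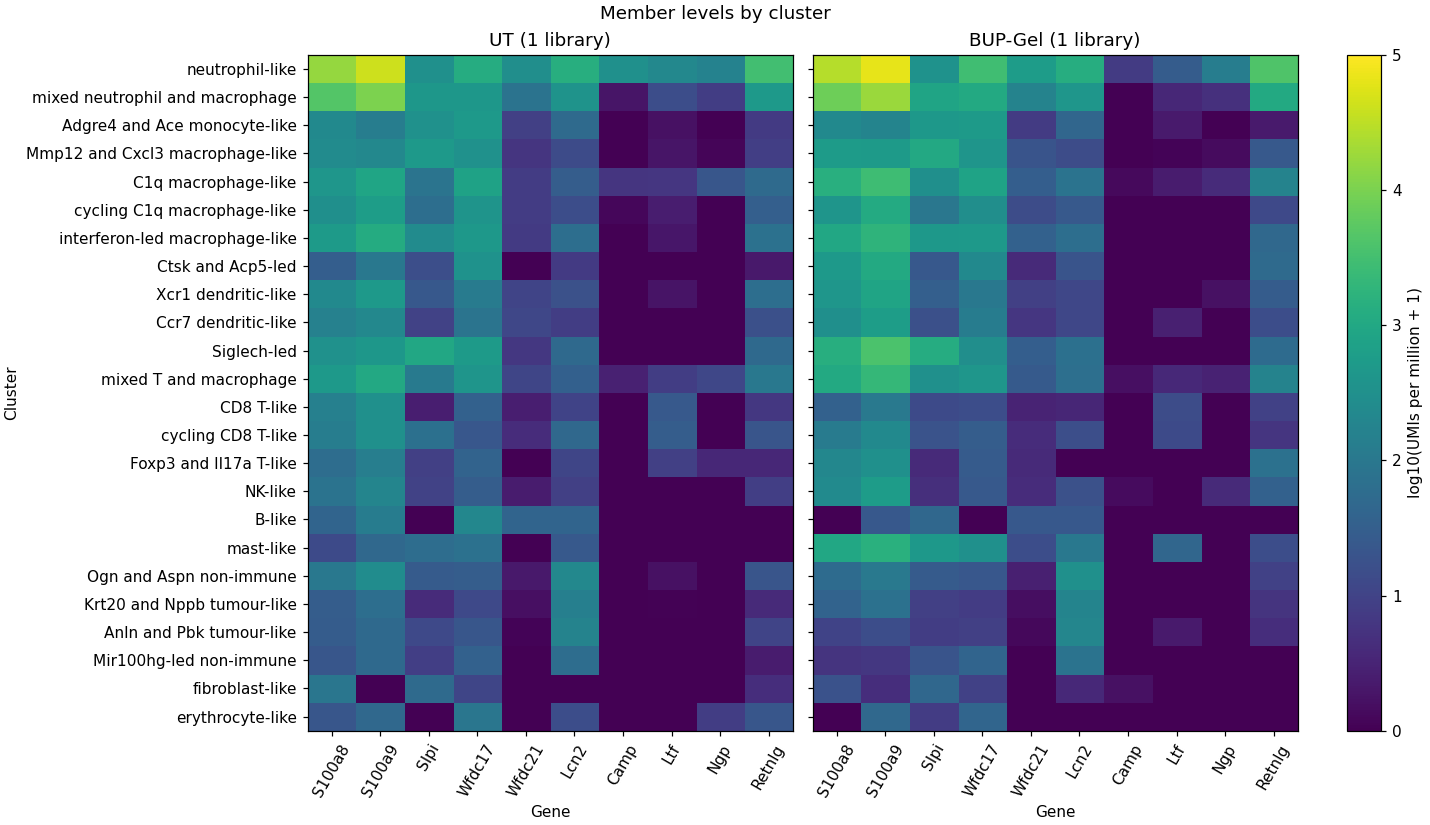
Level of each of the 10 genes (columns) in each of the clusters (rows), as log10 of CPM plus 1, with UT on the left and BUP-Gel on the right and 1 library each. S100a8 and S100a9 are brightest in the neutrophil-like row, Slpi stands out in the Mmp12 and Cxcl3 macrophage-like and Siglech-led rows, and Lcn2 is visible in the Ogn and Aspn and tumour-like rows.

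In neutrophil-like cells, both calprotectin genes were higher in BUP-Gel than in UT. S100a8 stood at 16336 CPM in UT (95% exact Poisson interval 16122 to 16551) and at 27969 CPM in BUP-Gel (27657 to 28283), a log2 ratio of 0.78. S100a9 stood at 41514 CPM in UT (41172 to 41857) and at 64212 CPM in BUP-Gel (63739 to 64687), a log2 ratio of 0.63. Intervals here and below cover counting error only, not the spread between cells, mice or libraries. Nearly every neutrophil-like cell carried these transcripts in both libraries, with an S100a9 UMI in 605 of 622 UT cells and 417 of 427 BUP-Gel cells, so the libraries differed in the share of UMIs and little in the share of cells. In Krt20 and Nppb tumour-like cells, which should lack the gene, the shares with S100a9 were 6.76% in UT and 4.06% in BUP-Gel at medians of 28147 and 26231 UMIs. In the median neutrophil-like cell, S100a8 and S100a9 together made up 4.83% of UMIs in UT and 8.36% in BUP-Gel. The lowest 10% of UT cells lay at or below 0.529%, and the lowest 10% of BUP-Gel cells at or below 2.09%. The highest 10% began at 11.3% in UT and 16.2% in BUP-Gel. BUP-Gel cells were thus higher at each of these points, and the ranges of the libraries overlap.

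**Figure D2:**
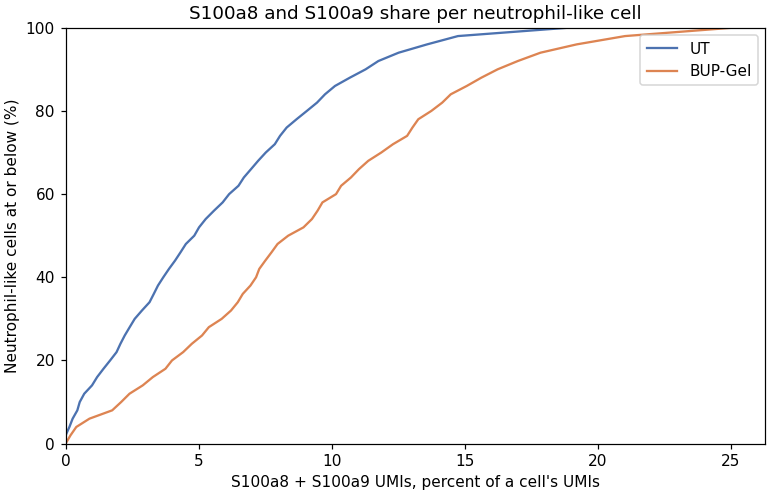
Percent of neutrophil-like cells (vertical) whose S100a8 and S100a9 UMIs together are at or below a given percent of the cell's UMIs (horizontal), for UT and BUP-Gel. The BUP-Gel line lies to the right of the UT line, with medians of 8.36% and 4.83%.

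The antiprotease-related genes of the same cells split. Wfdc17, a WAP-domain protein of activated macrophages, stood at 1259 CPM in UT (1200 to 1320) and 2923 CPM in BUP-Gel (2823 to 3026), with UMIs in 55.6% and 76.3% of cells. Wfdc21, another WAP-domain protein, stood at 291 CPM in UT (263 to 321) and 577 CPM in BUP-Gel (533 to 623), with UMIs in 30.1% and 51.8% of cells. Their log2 ratios were 1.21 (interval 1.13 to 1.30) and 0.99 (0.80 to 1.17). Slpi, the secretory leukocyte protease inhibitor, had 325 CPM in UT (295 to 357) and 358 CPM in BUP-Gel (323 to 395), and its log2 ratio of 0.14 had an interval from -0.06 to 0.34 that holds 0. After each cell was thinned to 1000 UMIs, the share with Wfdc17 was 44.5% among 541 UT and 67.0% among 379 BUP-Gel cells, and 81 and 48 shallower cells were left out. In NK-like cells, which should lack the gene and had medians of 5135 and 5596 UMIs before thinning, the thinned share with Wfdc17 was 4.78% in UT and 1.56% in BUP-Gel. Wfdc21 gave thinned shares of 19.6% and 38.8% in neutrophil-like cells, and of 0.217% and 0.312% in NK-like cells.

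Retnlg, a resistin-like hormone of myeloid cells, stood at 3096 CPM in UT (3003 to 3190) and 4200 CPM in BUP-Gel (4080 to 4323), a log2 ratio of 0.44. This is under the 1.5-fold used as the limit here, and Retnlg UMIs were found in 49.2% of UT and 65.6% of BUP-Gel cells. After thinning the shares were 46.0% and 60.2%, against 0.435% and 1.25% in NK-like cells. Lcn2 was close in both libraries, at 1383 CPM in UT (1321 to 1447) and 1327 CPM in BUP-Gel (1260 to 1397). The UT level of Lcn2 drew on fewer cells, with 26.9% of its UMIs in the 5 cells that held most, against 8.97% in BUP-Gel.

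Of 3 specific granule genes, Camp and Ltf were lower in BUP-Gel on the summed level and Ngp stayed within the limit. Camp, the cathelicidin precursor, had 327 CPM (297 to 359) in UT and 6.36 CPM (2.56 to 13.1) in BUP-Gel, a log2 ratio of -5.69. Ltf, lactoferrin, had 212 CPM (188 to 238) and 28.2 CPM (19.1 to 40.0), a log2 ratio of -2.91. Ngp, neutrophilic granule protein, stood at 165 CPM in UT (144 to 188) and 128 CPM in BUP-Gel (108 to 151). Camp UMIs came from 3 of the 622 UT neutrophil-like cells and 1 of the 427 BUP-Gel cells. For Camp the level therefore describes single cells.

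Of the 10 genes, 4 were at least 1.5-fold higher in BUP-Gel neutrophil-like cells, S100a8, S100a9, Wfdc17 and Wfdc21, where 2.31% of the 3977 genes with 50 or more UMIs were. Camp and Ltf, 2 of the 10, were at least 1.5-fold lower, where 14.8% of those genes were. The median log2 ratio was 0.29 over the 10 genes and -0.10 over all genes with enough UMIs. The balance of all genes depends on the scaling. With libraries scaled by the median ratio of genes, every log2 ratio in the cluster shifts by 0.21, and 317 genes were higher and 325 lower, in place of 92 and 589. Of the genes past the limit, 13.5% were higher on the CPM scale and 49.4% after that scaling, under which Retnlg joined S100a8, S100a9, Wfdc17 and Wfdc21 above the limit.

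**Figure D3:**
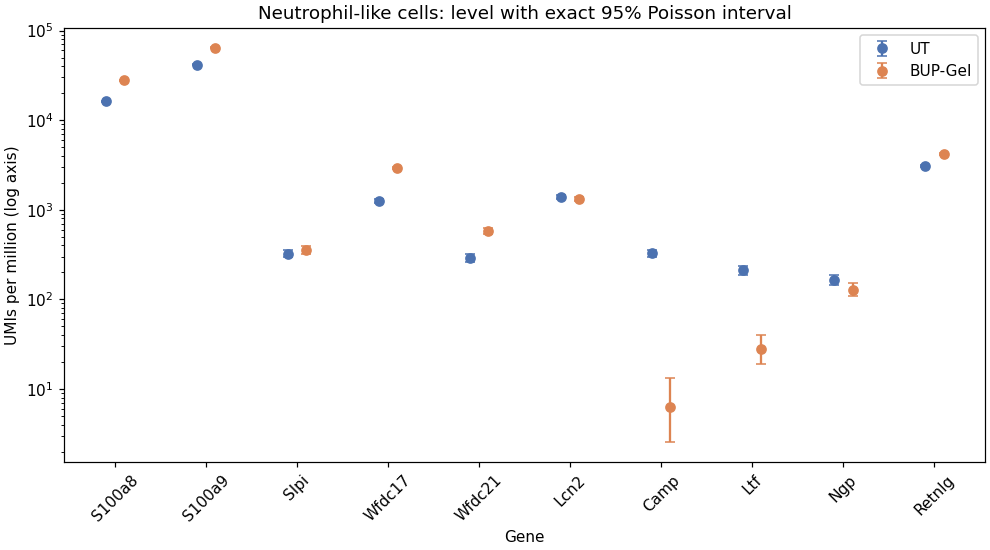
Level of each gene in neutrophil-like cells in CPM (log axis) for UT and BUP-Gel, with exact 95% Poisson intervals that cover counting error only. S100a8, S100a9, Wfdc17 and Wfdc21 lie higher in BUP-Gel, Slpi and Lcn2 lie close together, and Camp and Ltf lie lower.

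Other genes of the same pathways were counted in neutrophil-like cells against the same shares over all genes, 2.31% higher and 14.8% lower. Among azurophil granule genes, Lyz2 alone of 9 had 50 UMIs, at 1895 CPM in UT against 1382 CPM in BUP-Gel, and Elane and Ctsg had none. Of 11 specific granule genes with enough UMIs, none was higher and 3 were lower, Camp, Ltf and Cybb. Cybb, the catalytic subunit of the oxidase, stood at 103 and 28.2 CPM, with 45.7% and 35.5% of its UMIs in 5 cells. The same list held Hp, haptoglobin, at 1133 CPM in UT against 1247 CPM in BUP-Gel, and Cyba, the oxidase's other membrane subunit, at 814 and 738 CPM. All 11 measured gelatinase granule and secretory vesicle genes stayed within the limit, among them Cd14, the lipopolysaccharide co-receptor, at 2780 and 3746 CPM, Anxa1, annexin A1, at 736 and 692 CPM, and the metalloprotease gene Adam8 at 637 and 791 CPM. Padi4, which citrullinates histones, had the largest rise of that list (40.3 and 56.3 CPM), and the formyl peptide receptor Fpr2 the largest fall (185 and 166 CPM). Both were within the limit, and their log2 intervals (-0.07 to 1.03 and -0.44 to 0.13) hold 0.

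Stefins and other antiproteases had 11 genes with enough UMIs, of which 3 were higher, 1 was lower and the median log2 ratio was 0.49. The higher genes were Wfdc17, Wfdc21 and Cstdc4, a stefin-like inhibitor of cysteine proteases, at 1136 CPM in UT against 1808 CPM in BUP-Gel. Stfa2l1, another stefin, ended just under the limit (813 and 1203 CPM). Stfa3 was the lower one, at 55.7 and 23.6 CPM, with 77.6% of its UT UMIs in 5 cells. The stefin genes are close copies of each other, so reads may be split between them and these values are uncertain.

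In the S100 family, 8 of 14 genes had enough UMIs, with 2 higher (S100a8 and S100a9) and 2 lower. S100a10, the annexin A2 partner, had 156 CPM in UT against 43.6 CPM in BUP-Gel, and S100a4 196 and 106 CPM. S100a11 (3653 and 5081 CPM) stayed within the limit. Receptors for these proteins with enough UMIs, 5 of 10, all stayed within it, with Tlr4 at 310 and 326 CPM. Of the 7 measured regulators of granulocyte formation, 1 was lower, Irf8 (38.1 and 16.4 CPM), and Cebpb (7254 and 7562 CPM) and Csf3r (1417 and 1594 CPM) stayed within the limit. Retnlg was the sole resistin-family gene with enough UMIs. Members of the list of 10 are counted in these lists too.

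Camp, Ltf and Ngp shared a handful of cells. At least 10 Ngp UMIs were found in 4 UT cells and 1 BUP-Gel cell. The 4 UT cells held 99.4% of all Camp UMIs in the library, 93.0% of Ngp UMIs and 342 of 570 Ltf UMIs. Of these, 2 were neutrophil-like, 1 was in the C1q macrophage-like cluster and 1 in the mixed T and macrophage cluster. One neutrophil-like UT cell carried 367 Camp, 196 Ltf, 54 Ngp and 285 Lcn2 UMIs among 11090, and the other carried 78 Camp, 65 Ltf and 147 Ngp UMIs among 10985. Both had far more UMIs than the cluster's median of 1884. None of the 4 had an Mki67, Elane or Mpo UMI. The C1q macrophage-like cell, with 70 Camp, 68 Ltf and 292 Ngp UMIs, also carried 65 C1qa and 504 S100a8 UMIs among 29530. The BUP-Gel cell carried 118 Ngp, 18 Ltf and 7 Camp UMIs among 3054. Without cells that had 10 or more Ngp UMIs, the Ltf log2 ratio in neutrophil-like cells was -0.82 in place of -2.91, on counts under the limit of 50 UMIs, and no gene of the 10 was called lower.

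**Figure D4:**
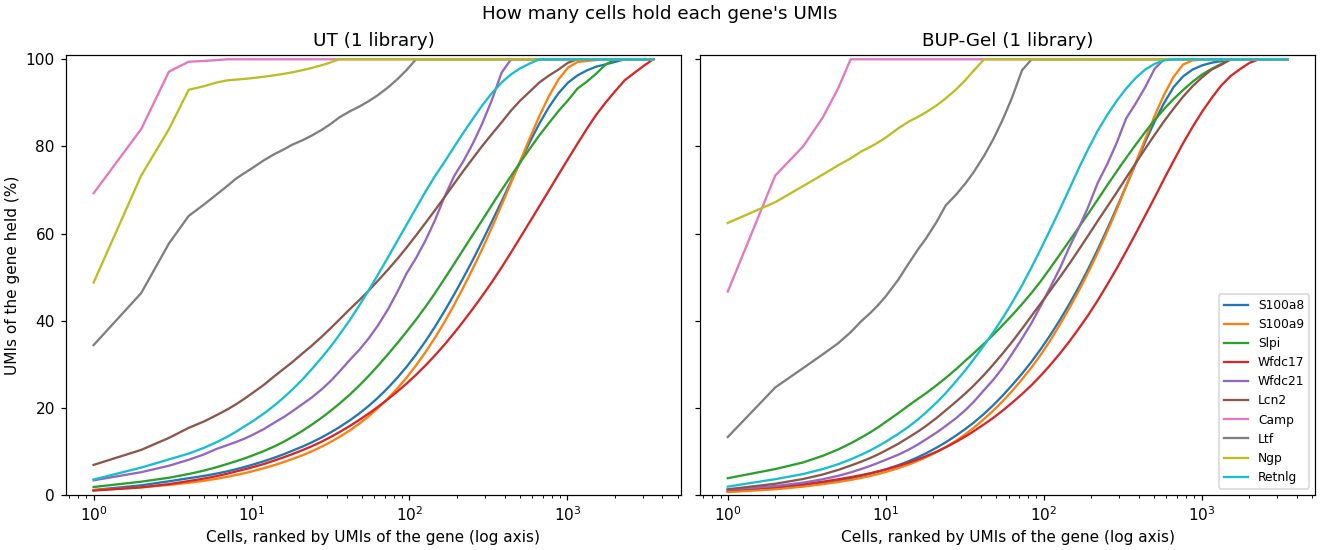
Percent of a gene's UMIs in a library (vertical) in its richest cells, ranked and added one by one (horizontal, log axis), with UT on the left and BUP-Gel on the right. Camp and Ngp reach 99.6% and 93.8% of UMIs within 5 UT cells and Ltf reaches 66.7%, while S100a8 and S100a9 need 221 and 237 UT cells for 50%.

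Ltf had a second set of carriers outside the neutrophils. Neutrophil-like cells held 50.7% of UT and 19.6% of BUP-Gel Ltf UMIs. CD8 T-like cells held 9.8% and 27.2%, and cycling CD8 T-like cells 10.5% and 23.4%. In CD8 T-like cells Ltf UMIs were found in 18 of 325 UT cells (5.54%, exact binomial interval 3.31 to 8.61%) and 19 of 499 BUP-Gel cells (3.81%, 2.31 to 5.88%). In cycling CD8 T-like cells they were found in 9 of 173 (5.20%) and 15 of 268 (5.60%). None of these 61 cells had a Camp or Ngp UMI, and 60 of them had a Cd3e UMI. One cycling UT cell held 36 Ltf UMIs and one cycling BUP-Gel cell 21. NK-like cells, with medians of 5135 and 5596 UMIs, were near CD8 T-like cells in depth (6311 and 5783 UMIs) but shallower than cycling CD8 T-like cells (11157 and 10500 UMIs). None of 492 UT and 345 BUP-Gel NK-like cells had a Ltf UMI, for which the exact binomial interval reaches 0.747% and 1.06% of cells with a UMI, and the limit of 3 cells is 0.610% and 0.870%. The intervals of UT and BUP-Gel overlap in both T-like clusters.

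In macrophage-like clusters, S100a9 sat mostly in a minority of cells. In C1q macrophage-like cells S100a9 stood at 884 CPM in UT against 2766 CPM in BUP-Gel. There, 138 of 1066 UT cells (12.9%) and 98 of 452 BUP-Gel cells (21.7%) had 10 or more S100a9 UMIs, and they held 98.6% and 99.6% of the cluster's S100a9 UMIs. Every one of them had at least 3 of the 10 neutrophil markers, against 20.5% of UT and 20.6% of BUP-Gel cells with no S100a9 UMI. These cells were deep, with medians of 19258 and 16646 UMIs against 11161 and 9646 in cells without S100a9. Doublet scores in the highest 6% of all cells were given to 41 of the 138 and 3 of the 98, and the part of doublets in these UMIs was not tested. In Mmp12 and Cxcl3 macrophage-like cells, 43 of 1301 UT and 50 of 823 BUP-Gel cells held 92.3% and 97.8% of S100a9. At least 3 neutrophil markers were found in all 43 and in 96% of the 50, but also in 42.7% and 50.5% of that cluster's cells without S100a9.

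S100a8 did not follow S100a9 in every cluster. The ratio of S100a9 to S100a8 UMIs was 2.54 in UT and 2.30 in BUP-Gel neutrophil-like cells, and 2.14 and 1.92 in C1q macrophage-like cells. In Mmp12 and Cxcl3 macrophage-like cells it was 0.817 (0.773 to 0.864) in UT and 0.944 (0.903 to 0.986) in BUP-Gel. In Adgre4 and Ace monocyte-like cells it was 0.551 (0.460 to 0.658) and 0.760 (0.605 to 0.952). The intervals of the last 2 clusters lie apart from those of neutrophil-like cells (2.50 to 2.58 in UT and 2.27 to 2.33 in BUP-Gel). They treat each UMI as independent, so they are too narrow where a few cells hold many UMIs. In the Adgre4 and Ace cluster, 4 UT cells held 42.05% and 2 BUP-Gel cells 74.1% of S100a9 UMIs. In the Mmp12 and Cxcl3 cluster, 459 of 1301 UT cells and 355 of 823 BUP-Gel cells had S100a8 but no S100a9 UMI, 81.8% and 80.9% of the cells with S100a8. Among cells with no S100a9 UMI, S100a8 was found in 40.5% of UT and 50.1% of BUP-Gel cells of that cluster at medians of 7509 and 7768 UMIs, against 4.11% and 1.36% of tumour-like cells at medians of 28020 and 26319 UMIs. In the cells of the Mmp12 and Cxcl3 cluster without S100a9, S100a8 had 152 CPM in UT and 304 in BUP-Gel, where such cells of the Ogn and Aspn cluster had 3.46 and 5.71 CPM. The fibroblast-like cluster, of 15 and 64 cells, had 27 and 24 S100a8 UMIs with 0 and 5 S100a9 UMIs.

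**Figure D5:**
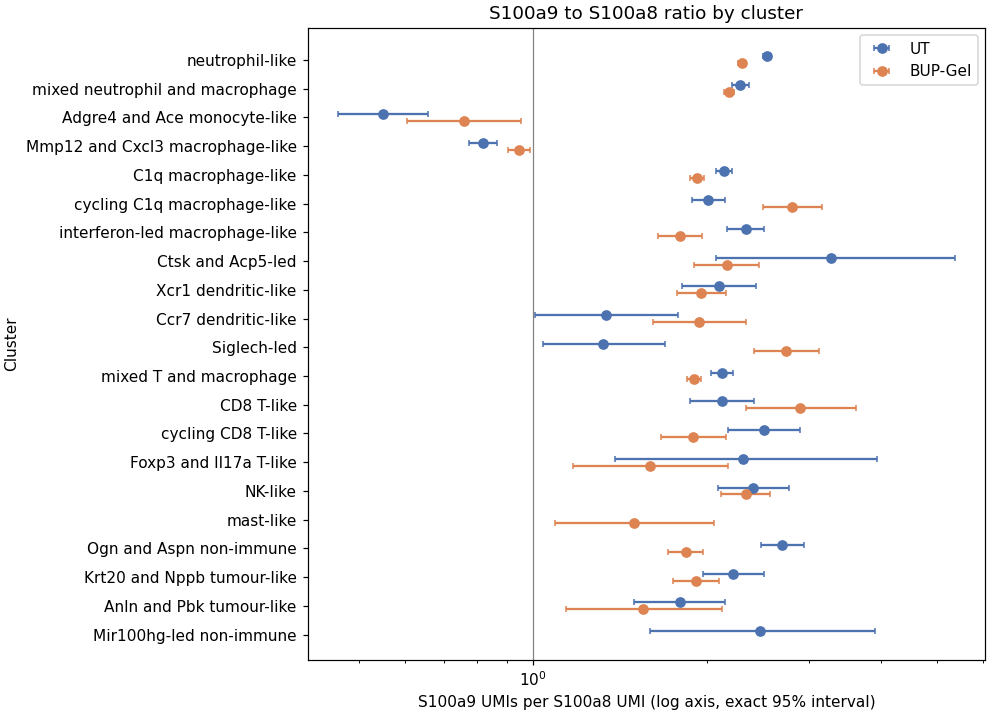
S100a9 UMIs per S100a8 UMI in each cluster with 50 or more UMIs of the pair (log axis), with exact 95% intervals, for UT and BUP-Gel. The Adgre4 and Ace monocyte-like and Mmp12 and Cxcl3 macrophage-like clusters lie under 1 in both libraries, and the neutrophil-like cluster lies at 2.54 and 2.30.

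Slpi was foremost a macrophage-like transcript in these tumors. The Mmp12 and Cxcl3 cluster held 52.6% of its UT UMIs and 50.3% of its BUP-Gel UMIs, and neutrophil-like cells held 4.16% and 2.52%. In that cluster Slpi had 518 CPM (504 to 531) in UT and 1046 CPM (1023 to 1069) in BUP-Gel, with UMIs in 763 of 1301 and 550 of 823 cells. After thinning to 1000 UMIs the shares were 26.3% and 33.1%, against 0.450% and 0.871% in Krt20 and Nppb tumour-like cells. Without the 5 cells with most UMIs, the log2 ratio was 0.86 in place of 1.01. In cells of the cluster with no S100a9 UMI the levels were 506 and 1094 CPM, and neutrophil markers still summed to 930 and 1023 CPM in those cells. The small Siglech-led cluster, of 33 and 22 cells, stood at 1007 CPM (907 to 1116) and 1252 CPM (1113 to 1404). In C1q macrophage-like cells Slpi stood at 81.8 and 304 CPM, and its log2 ratio of 1.90 was 1.82 in cells with no S100a9 UMI. Krt20 and Nppb tumour-like cells had 3.13 and 7.92 CPM.

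Of the 7 genes with enough UMIs in the Mmp12 and Cxcl3 cluster, 5 were higher in BUP-Gel (S100a8, S100a9, Slpi, Wfdc21 and Retnlg) and none lower, where 2.19% of all measured genes were higher and 3.11% lower. Wfdc17 (341 and 405 CPM) and Lcn2 (12.7 and 13.8 CPM) stayed within the limit. In the C1q cluster, 6 of 10 genes were higher (the same 5 and Lcn2) against 4.2% of genes, and 3 of 10 were lower (Camp, Ltf and Ngp) against 3.22% of genes. The single UT cell described above held 70 of 70 Camp, 68 of 75 Ltf and 292 of 295 Ngp UMIs there. In UT, C1q cells with no S100a9 UMI held 0.531% of that cluster's Retnlg, 4.17% of Wfdc21, 5.25% of Lcn2 and 4.95% of S100a8 UMIs. In BUP-Gel they held 0% of Retnlg and Wfdc21, 3.97% of Lcn2 and 2.32% of S100a8. For Slpi these shares were 60.5% in UT and 51.4% in BUP-Gel. In the Mmp12 and Cxcl3 cluster such cells held 7.6% and 0.562% of Retnlg but 54.7% and 53.9% of Wfdc21. In the mixed neutrophil and macrophage cluster 6 of 7 genes were higher, all but Lcn2, and none lower, against 3.42% and 6.42% of genes. Neutrophil markers summed to 7502 and 7857 CPM in that mixed cluster, to 963 and 1420 CPM in the C1q cluster and to 1085 and 1206 CPM in the Mmp12 and Cxcl3 cluster, and their part in these ratios was not tested. In Adgre4 and Ace monocyte-like cells none of 5 genes passed the limit in either direction, against 4.87% of genes higher and 6.16% lower, and S100a8 stood at 237 CPM in UT (UMIs in 73 of 482 cells) and 233 CPM in BUP-Gel (29 of 262 cells).

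Wfdc17 was carried by most C1q macrophage-like cells, 81.0% in UT and 79.4% in BUP-Gel, at 761 CPM (747 to 776) and 803 CPM (780 to 826). In the deeper tumour-like cells 62 of 444 and 47 of 690 cells had a Wfdc17 UMI. The C1q cluster held 44.8% of UT and 26.0% of BUP-Gel Wfdc17 UMIs, and neutrophil-like cells held 7.13% and 18.0%. The gene was thus close between the libraries in C1q macrophage-like cells and higher in BUP-Gel in neutrophil-like cells. The difference between these ratios was not tested.

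Lcn2 was shared between neutrophil-like cells and cells outside the immune lineage, and the latter held more of its UMIs. Neutrophil-like cells held 22.8% of UT and 9.34% of BUP-Gel Lcn2 UMIs. The Ogn and Aspn cluster held 19.2% and 46.0%, and the Krt20 and Nppb cluster 23.1% and 22.4%. Anln and Pbk tumour-like cells held 14.3% and 9.40%. In the Ogn and Aspn non-immune cluster it stood at 218 CPM (207 to 229) in UT and 319 CPM (312 to 326) in BUP-Gel, with UMIs in 189 of 509 and 641 of 1511 cells. In Krt20 and Nppb tumour-like cells it stood at 143 CPM (136 to 149) and 182 CPM (176 to 188), with UMIs in 32.7% and 28.6% of cells. Cells with no S100a9 UMI held 93.6% of UT and 98.4% of BUP-Gel Lcn2 UMIs in the tumour-like cluster. Thinned to 1000 UMIs, Lcn2 was found in 10.8% and 8.42% of tumour-like cells and in 11.3% and 16.3% of Ogn and Aspn cells, against 0.652% and 0.312% of NK-like cells.

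None of the 6 genes measured in the Ogn and Aspn cluster was higher in BUP-Gel and 3 were lower (S100a8, S100a9 and Retnlg), where 1.29% of genes were higher and 4.4% lower. Cells with 10 or more S100a9 UMIs made up 20 of 509 UT and 12 of 1511 BUP-Gel cells. They held 98.0% and 96.4% of that cluster's S100a9. In cells with no S100a9 UMI the S100a8 log2 ratio turned to 0.72 (interval 0.06 to 1.45). That ratio rests on 22 UT UMIs in 22 cells and 121 BUP-Gel UMIs in 46 cells. Slpi had 17 UT and 521 BUP-Gel UMIs in cells with no S100a9 UMI, found in 10 and 65 cells. Its log2 ratio was 3.20 there against 0.01 over the whole cluster, while Lcn2 gave 0.58 and Wfdc17 0.13. Doublet scores in the highest 6% were given to 15 of the 20 and 11 of the 12 cells, and without the cells of such scores the S100a9 log2 ratio of the cluster was -3.80 in place of -1.41. In the Krt20 and Nppb cluster 2 of 6 genes were higher (Slpi and Retnlg) and 1 was lower (Wfdc17), against 1.31% of genes higher and 3.14% lower, with 9 of 444 and 7 of 690 cells holding 96.8% and 98.5% of S100a9. Retnlg came from 5 cells in each library there.

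Over the 48 points of cluster and library, log2 levels of S100a8, S100a9 and Retnlg ran together, with Pearson's r of 0.88 for S100a8 with S100a9 and 0.87 for S100a9 with Retnlg. Camp and Ngp gave 0.82. The genes nearest to S100a8 among 13341 were Csf3r (0.92) and Lrg1 (0.88), those nearest to S100a9 were G0s2 (0.93) and Il36g (0.93), and those nearest to Slpi were Tarm1 (0.87) and Il1a (0.86). Clec4e (0.92) and Clec4d (0.91) were among the 5 genes nearest to Wfdc17. Ngp was nearest to Ly6g (0.83) and Olfm4 (0.83), and Retnlg to Cstdc4 (0.89). Lcn2 and Ltf had no close partner, with highest values of 0.79 (Egr1) and 0.71 (Slc2a3). The points share 2 libraries and differ in depth, so these values describe these clusters. Csf3r, G0s2, Clec4d and Ly6g are also among the markers that named the neutrophil-like cluster.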

How the data were processed

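Single-cell RNA was measured in 1 UT and 1 BUP-Gel library. The authors made the deposited UMI counts with Cell Ranger on GRCm39 (version 8.0.1 in the submitters' processing notes, which also name Seurat 5.0.1), without normalization, and these whole-number counts were used. Barcodes with over 100 UMIs and under 20% mitochondrial UMIs were kept, as in the study's methods. Seurat 5.3.0 (R 4.3.3) clustered both libraries together with 2000 variable genes, the 10 genes removed, 20 principal components and resolution 0.5. Clusters with Ptprc UMIs in 30% or more of their cells were taken as immune and clustered again. A cell type name rests on at least 3 detected markers, none of them among the 10 genes, and other clusters carry their leading genes. Names rest on rebuilt clusters, and doublets were not removed. UMIs were summed per cluster and library and given per 1000000 UMIs of the cluster (CPM) with exact 95% Poisson intervals, log2 ratios with exact intervals conditional on the summed counts, and shares with exact binomial (Clopper-Pearson) intervals. A count of 0 allows 3 counts. A gene was called past the limit at 1.5-fold with at least 50 UMIs over both libraries. With 1 library per group, no test was possible. On simulated neutrophil-like sums of 3986 genes with 2-fold changes in 187, 94.1% of the changed genes were called in the right direction and 4.00% of the unchanged ones passed the limit. The simulated sums had Poisson counting error only and no spread between cells, mice or lanes. The 4.00% is therefore not the rate of false calls in the real libraries. The 10 genes and all lists were chosen with earlier results of these data known. The text names all 10 genes, genes from among the 3 of highest level and those of largest rise and fall in each list, and some of the 5 genes most like each of the 10. Elane, Ctsg and S100a4 were named after their values were seen. Likeness used log2(CPM + 1) of genes with at least 200 UMIs. Python 3.11.15, numpy 2.4.6, scipy 1.17.1, pandas 2.3.3, matplotlib 3.10.9 and scanpy 1.11.5 (Scrublet) were used. Gene positions came from GENCODE vM39 and upstream windows from RefSeq, located in GRCm39 by exact match.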

Additional observations from a re-analysis of the deposited data

Results flagged for a closer look

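Ratios were compared over the neutrophil-like, mixed neutrophil and macrophage, monocyte-like, Mmp12 and Cxcl3, C1q, Ogn and Aspn and Krt20 and Nppb clusters. Of the genes described, 4 had a BUP-Gel to UT log2 ratio past 1.5-fold upward in one cluster and downward in another. The share of all genes that did so was not counted, so whether 4 is unusual cannot be said. The difference between clusters was not tested. In the clusters left out of this comparison, Slpi (-1.91) and Lcn2 (-1.70) were also lower in cycling CD8 T-like cells. Slpi was lower in Anln and Pbk tumour-like cells too (-0.67). S100a8 gave 1.80 in C1q macrophage-like cells and -0.85 in Ogn and Aspn non-immune cells, S100a9 gave 1.65 and -1.41 in the same clusters, and Retnlg 1.71 and -1.26. Wfdc17 gave 1.31 in the mixed neutrophil and macrophage cluster and -0.82 in Krt20 and Nppb tumour-like cells, on 157 UT and 128 BUP-Gel UMIs in the latter. In the Ogn and Aspn cluster the summed level of the neutrophil markers moved the same way as S100a9, from 211 CPM in UT to 74.0 CPM in BUP-Gel, and in the C1q cluster it moved upward, from 963 to 1420 CPM. The part of these markers' cells in the ratios was not tested. Cells rich in S100a9, 20 in UT and 12 in BUP-Gel, held 98.0% and 96.4% of the S100a9 UMIs of the Ogn and Aspn cluster.

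Barcodes removed for their mitochondrial share, 393 in UT and 445 in BUP-Gel, carried S100a9 at 1802 CPM in UT against 2072 CPM in BUP-Gel, beside 1227 and 1611 CPM over all kept cells. Of these barcodes, 12.7% and 8.76% had an S100a9 UMI.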

How the results depend on the processing

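Alternatives were run 1 at a time for 24 log2 ratios, 2 counts of genes, 16 levels and 18 shares. For the log2 ratios, 155 alternative values lay within the main interval, 78 lay outside it and 1 turned in sign. The main intervals cover counting error only. The count of 4 genes higher in BUP-Gel neutrophil-like cells was 4 or 5 under 11 alternatives and 1 (Wfdc17) at a 2-fold limit. The count of 2 lower genes was 0 after thinning to 1000 UMIs, without the 5 cells with most UMIs of a gene and, an alternative added after seeing the data, without cells with 10 or more Ngp UMIs. Fewer UMIs than the limit of 50 remained in these cases. The S100a8 log2 ratio of 0.78 became 0.75 at resolution 1.0, 0.83 with the 10 genes left out of the denominator, 0.99 with median-ratio scaling, 0.88 after thinning, 0.81 without the 5 top cells and 0.80 without the Ngp-rich cells. The S100a9 ratio of 0.63 became 0.60, 0.69, 0.84, 0.67 and 0.65 under the first 5 of these. Wfdc17 and Wfdc21 became 1.43 and 1.20 with median-ratio scaling, and Wfdc21 1.32 after thinning. Camp became -3.95 after thinning, and Ltf -1.70 after thinning, -1.10 without the 5 top cells and -0.82 without the Ngp-rich cells. Slpi in the Mmp12 and Cxcl3 cluster became 0.86 without the 5 top cells and 1.11 in cells with no S100a9 UMI. The S100a8 ratio of the Ogn and Aspn cluster turned from -0.85 to 0.72 in cells with no S100a9 UMI (added after seeing the data). That value rests on 22 UT and 121 BUP-Gel UMIs. Without the highest doublet scores, the S100a9 ratio of that cluster became -3.80 and that of the C1q cluster 2.12. Scores came from a separate run per library and 1 cut was set over both, so removal was unequal. Of cells with 10 or more S100a9 UMIs, it took 15 of 20 UT and 11 of 12 BUP-Gel cells in the Ogn and Aspn cluster. In the C1q cluster it took 41 of 138 UT and 3 of 98 BUP-Gel cells. The causes of these changes were not tested. Shares of cells with a UMI moved with the thinning depth in 50 of 54 cases. Of the Camp, Ltf and Ngp UMIs of neutrophil-like cells, 1 cell holds most in each library. Camp without its 5 top cells gave no value, its counts being at or under 3. No paired analysis and no leaving out of replicates was possible because each group has 1 library.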
